A study of Mus musculus with 16 samples.

Results

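The genes that load and start the replicative helicase were followed in mouse neural stem cells: 10 genes, chosen by name, of 57132 in each RNA-seq library. They are the 6 subunits of the helicase, Mcm2 to Mcm7, the loaders Cdc6 and Cdt1, the Cdt1 inhibitor geminin (Gmnn) and the activation factor Mcm10. Each symbol matched 1 gene, and all 10 passed the filter on low counts in every comparison.

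The series set cells labelled gRNA against cells labelled control, with RNA-seq in 12 libraries and ribosome footprints in 4. All were neural stem cells. The RNA-seq libraries carry the treatment label GF, which the series' design text gives as self-renewing conditions. The series title names the agent given to the gRNA cells as TAPIR. The RNA-seq libraries form 4 groups of 3: gRNA and control cells of batch 2, and gRNA and control cells of batch 1. The labels explain neither the agent nor the sequence the guide RNA is aimed at, so no target could be read as a check of the labels, and they give no mouse strain, age, culture or clone. Library numbers below follow accession order within a group and pair nothing. The labels do not state that the libraries of a group are separate cultures, so the p-values measure the spread between libraries, which may be technical. The footprint values were not analysed here for these genes, because the files and reference tables used pair none of their transcripts with a gene.

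Origins of replication are licensed before DNA synthesis. The origin recognition complex, Cdc6 and Cdt1 place the ring of Mcm2 to Mcm7 on DNA as an inactive double hexamer, and Cdc45, the GINS complex and Mcm10 later turn it into a moving helicase. Geminin binds Cdt1 outside the licensing window and so limits each origin to a single firing, and the transcripts of most of these genes peak around the start of S phase under E2F factors. Neural stem cells kept in growth factors divide, and their Mcm proteins serve as markers of cells that can replicate.

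Letters known as binding sites of E2F factors were searched in the promoters, since E2F factors are known to drive many of these genes. The sequences are RefSeq promoters on GRCm38.p6, not the GRCm39 build named for the counts, and run from 250 bases before to 50 bases after each start site. Entries were found for 8 of the 10 genes, with 2 start sites for Mcm7 and none for Mcm4 and Gmnn. Capitals mark matches, on either strand, to the E2F words TTTCCCGC, TTTCGCGC, TTTGCCGC and TTTGGCGC. The promoters of Mcm5, which differed between batches, and of Mcm6, which held the most matches, are shown 5′ to 3′ along the gene's strand. So are those of Cdc6, which lay farthest below its batch in control library 3 of batch 2, and of Mcm2, which held no E2F match. They lie at chr8:75109259-75109558 (plus strand, Mcm5), chr1:128359656-128359955 (minus strand, Mcm6), chr11:98907901-98908200 (plus strand, Cdc6) and chr6:88898731-88899030 (minus strand, Mcm2).
Mcm5: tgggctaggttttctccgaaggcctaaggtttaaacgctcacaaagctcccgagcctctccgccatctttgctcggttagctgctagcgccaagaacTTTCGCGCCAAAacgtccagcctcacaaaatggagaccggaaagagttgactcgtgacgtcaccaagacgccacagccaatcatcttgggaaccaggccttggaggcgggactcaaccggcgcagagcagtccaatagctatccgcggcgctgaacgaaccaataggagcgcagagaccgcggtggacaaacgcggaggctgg
Mcm6: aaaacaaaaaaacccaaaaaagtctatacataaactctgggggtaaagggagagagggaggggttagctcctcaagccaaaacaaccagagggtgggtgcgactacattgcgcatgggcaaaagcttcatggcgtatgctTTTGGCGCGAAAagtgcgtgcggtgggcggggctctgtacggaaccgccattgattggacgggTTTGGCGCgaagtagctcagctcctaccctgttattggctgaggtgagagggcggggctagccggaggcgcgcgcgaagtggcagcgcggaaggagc
Cdc6: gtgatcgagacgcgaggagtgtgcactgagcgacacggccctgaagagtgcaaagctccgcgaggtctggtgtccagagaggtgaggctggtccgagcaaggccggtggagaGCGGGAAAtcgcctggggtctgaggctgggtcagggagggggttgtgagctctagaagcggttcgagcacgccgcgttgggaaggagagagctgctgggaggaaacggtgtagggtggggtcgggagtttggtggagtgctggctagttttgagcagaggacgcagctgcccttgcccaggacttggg
Mcm2: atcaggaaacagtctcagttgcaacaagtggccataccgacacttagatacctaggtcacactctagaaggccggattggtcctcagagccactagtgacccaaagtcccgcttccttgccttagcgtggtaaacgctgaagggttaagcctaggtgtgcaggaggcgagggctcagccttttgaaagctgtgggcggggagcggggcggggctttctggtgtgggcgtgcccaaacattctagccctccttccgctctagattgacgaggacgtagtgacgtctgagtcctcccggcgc

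An E2F word was present in 6 of the 9 promoters of these genes and in 2.26% of the 32851 promoters in the table. In Mcm5 and in Mcm6 a run of 12 capitals holds a forward and a reverse match that share 4 bases, starting 153 bases before the Mcm5 start and 110 bases before the Mcm6 start. Mcm6 had a further match 47 bases before its start, and the match of Cdc6 lay 138 bases before its start on the reverse strand. The remaining matches were in Mcm3, in 1 of the Mcm7 promoters and in Cdt1. The CCAAT box, CCAAT on either strand, was in 7 of the 9 promoters and in 37.4% of all, and the GC box, GGGCGG on either strand, in 7 of the 9 and in 35.7% of all. The cell cycle element TTTGAA was in the Mcm2 promoter, which is 1 of the 9, and in 17.9% of all. In 1 of the Mcm7 promoters an E2F match and a CCAAT box share 1 base, and no other matches of different motifs overlapped in these 9 promoters. A match says nothing of binding.

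**Figure D1:**
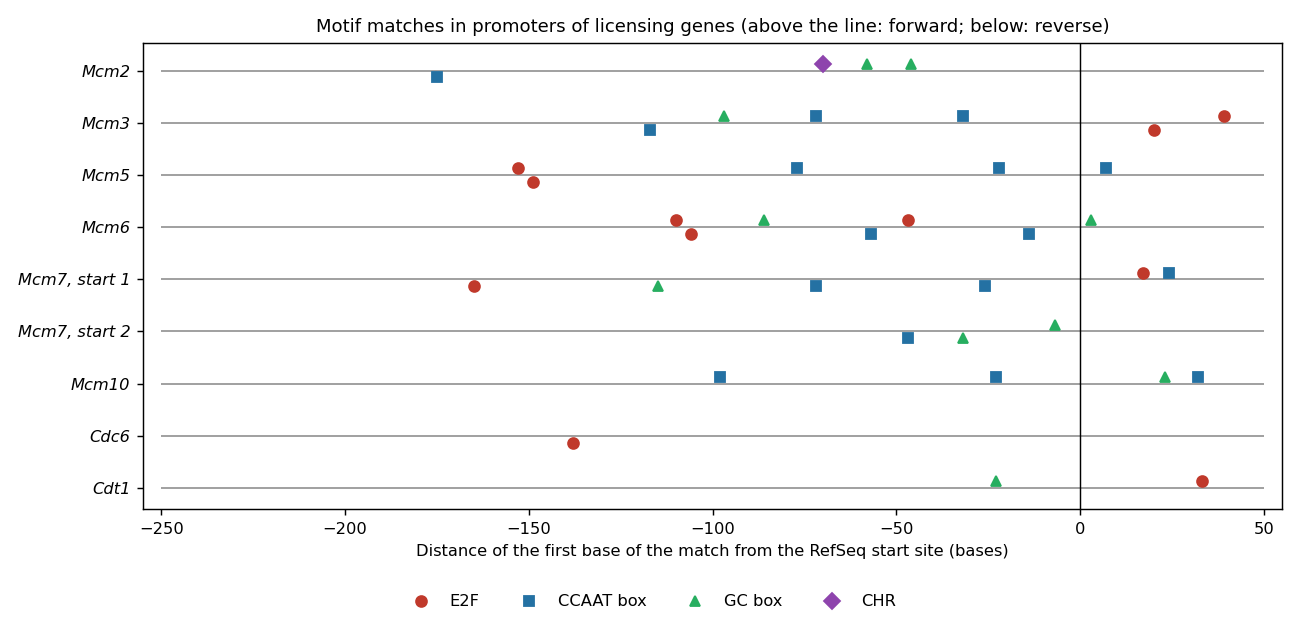
Positions of motif matches in the 9 RefSeq promoters of the licensing genes that have an entry. The horizontal axis is the distance in bases of the first base of a match from the start site, symbols above a line are forward matches and symbols below it reverse matches; E2F words stand in 6 of the 9 promoters.

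The libraries held 8414028 to 19454390 read counts in genes, and levels are CPM, the field's depth-scaled counts, of library sizes scaled by the trimmed mean of M values (TMM). A licensing gene held between 212 counts, for Gmnn in control library 2 of batch 1, and 4303 counts, for Mcm2 in gRNA library 1 of batch 2. Levels are not per transcript length, so they are compared between libraries and not between genes. All 9 neural stem cell markers were present in all 12 libraries, with Sox2 at 131 to 191 CPM and Nes at 455 to 746 CPM. Markers of other cell types were partly present. Of the neuronal genes, Map2 was at 593 to 853 CPM, Tubb3 reached 26.2 CPM and Rbfox3 21.4 CPM, while Stmn2 was at 0 in 7 of the 12 libraries. Of the oligodendrocyte lineage genes, Cspg4 was at 57.7 to 196 CPM and Pdgfra at 9.98 to 106 CPM, while Sox10 was at 0 in 3 libraries and reached 1.11 CPM. The highest level of a microglial gene was 1.92 CPM, for Csf1r, and that of an endothelial or mural gene 6.04 CPM, for Kdr. Of the ependymal genes, Foxj1 was at 26.1 to 70.1 CPM, Rsph1 reached 2.96 CPM and Pifo was at 0 in all 12 libraries. No gene of the astrocyte list was at 0 in any library, but Gfap fell to 0.40 CPM and Aqp4 to 0.46 CPM. The list was led by Slc1a3 at 369.5 to 748 CPM, a transporter that neural stem cells also express. One library stood apart: in control library 3 of batch 2, 33.9% of the tested genes lay more than 0.5 on the log2 scale from the mean of the other 5 libraries of the batch, against 10.97% to 23.2% in the other 11 libraries.

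The licensing genes did not differ between gRNA and control libraries by more than the spread between libraries. Over both batches, with batch as a term, edgeR's quasi-likelihood test with Benjamini-Hochberg adjustment called 0 of the 10 genes, and 0% of the 17704 genes tested, at an adjusted p under 0.05. An unadjusted p under 0.05 was found for 230 genes, none of them a licensing gene. DESeq2 called 0 genes, with 216 below 0.05 unadjusted, and limma-voom 0, with 232. The log2 fold changes of the 10 genes were all above 0, with a median of 0.097 against -0.0074 over all genes tested. Without control library 3 of batch 2, 4 were above 0 and 6 below, with a median of -0.015. Mcm7 was also below 0 without gRNA library 1 of batch 1, without control library 3 of batch 1 and without gRNA library 3 of batch 2, and Mcm2 was below 0 without gRNA library 3 of batch 2, where the median was 0.034; in the other 8 fits that left out 1 library all 10 genes were above 0.

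Among the helicase subunits, Mcm2, the subunit that also carries histones at the fork, had 248, 255 and 297 CPM in the gRNA libraries of batch 2, against 290.1, 255 and 157 CPM in its control libraries. In batch 1 Mcm2 was at 230.3, 218 and 209 CPM in gRNA and at 233, 248 and 206 CPM in control libraries. The groups overlapped in batch 1, and in batch 2 the 157 CPM of control library 3 lay below all others. The log2 fold change of Mcm2 was 0.058 (SE 0.13, 95% interval -0.22 to 0.34, n = 6 libraries per group, edgeR adjusted p 0.9998), and -0.051 (SE 0.088) without that library.

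Mcm3, Mcm4 and Mcm6, further subunits of the ring, showed the same layout. Mcm3 had 217, 218 and 249 CPM in the gRNA libraries of batch 2, against 249, 218 and 123 CPM in its control libraries. Mcm4 had 227, 236 and 273 CPM in gRNA and 255, 234 and 145 CPM in control libraries of batch 2. Mcm6 had 216, 219 and 263 CPM in gRNA and 241, 221 and 147 CPM in control libraries of batch 2. In each of the 3 genes the lowest value of batch 2 was that of control library 3, and the other 5 libraries of the batch overlapped between the groups. In batch 1, Mcm3 was at 192 ± 12.7 CPM in gRNA and 197 ± 19.4 CPM in control libraries, Mcm4 at 210.4 ± 12.9 CPM in gRNA and 212.5 ± 19.2 CPM in control libraries, and Mcm6 at 208 ± 19.7 CPM in gRNA and 208 ± 23.0 CPM in control libraries (SD, n = 3 each). The log2 fold changes over both batches were 0.084 (SE 0.14) for Mcm3, 0.096 (SE 0.13) for Mcm4 and 0.097 (SE 0.12) for Mcm6. When control library 3 of batch 2 was left out they were -0.037 (SE 0.087) for Mcm3, -0.0068 (SE 0.087) for Mcm4 and 0.0065 (SE 0.097) for Mcm6.

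Mcm7, the subunit next to Mcm3 in the ring, fell short of the others least in control library 3 of batch 2. It had 202, 209 and 231 CPM in gRNA and 234, 205 and 173 CPM in control libraries of batch 2. Its batch 1 values were 224, 183 and 181 CPM in gRNA and 203, 228 and 169.8 CPM in control libraries. The control library at 173 CPM was therefore not the lowest of the 12 for this gene. Its log2 fold change was 0.016 (SE 0.11, 95% interval -0.22 to 0.25), and it turned to -0.033 without control library 3 of batch 2.

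Mcm10, which joins the helicase when it is activated, lay within a narrow range in the gRNA libraries of batch 2. It had 135, 133 and 136 CPM in gRNA and 128, 127 and 48.3 CPM in control libraries of batch 2. The libraries of batch 1 had 114, 127 and 109 CPM in gRNA and 128, 98.7 and 106 CPM in control libraries. In batch 2 the lowest gRNA value, 133 CPM, lay above the highest control value, 128 CPM, and in batch 1 the groups overlapped. The batch 2 difference did not pass the test (log2 fold change 0.42, SE 0.32, edgeR adjusted p 0.9976). How many of all genes separate in this way was not counted. Its log2 fold change over both batches was 0.24 (SE 0.18, 95% interval -0.15 to 0.63, edgeR adjusted p 0.9998), and 0.076 (SE 0.066) without control library 3 of batch 2.

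Of the loaders, Cdc6, the ATPase that works with the origin recognition complex, had 89.0, 85.5 and 106 CPM in gRNA and 86.0, 90.8 and 27.4 CPM in control libraries of batch 2. Those of batch 1 had 85.6, 81.6 and 72.4 CPM in gRNA and 86.0, 69.6 and 73.3 CPM in control libraries. The 27.4 CPM of control library 3 is the lowest of the 12 values, and the groups overlapped in both batches. Its log2 fold change was the highest of the 10, at 0.26 (SE 0.21, 95% interval -0.20 to 0.72), and was 0.073 (SE 0.083) without that library.

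Cdt1, the loader that geminin restrains, had 103, 109 and 114 CPM in gRNA and 109.6, 110.2 and 52.9 CPM in control libraries of batch 2. In batch 1 it had 84.9, 87.0 and 74.5 CPM in gRNA and 93.3, 81.8 and 77.2 CPM in control libraries. The values of the 2 treatments overlapped in each batch. Its log2 fold change was 0.11 (SE 0.15), and -0.024 (SE 0.072) without control library 3 of batch 2.

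Gmnn, the inhibitor, had 41.0, 41.2 and 47.2 CPM in gRNA and 45.5, 40.8 and 25.7 CPM in control libraries of batch 2. In batch 1 it had 41.3, 29.8 and 25.5 CPM in gRNA and 32.1, 26.1 and 25.2 CPM in control libraries. One gRNA library of batch 1, at 41.3 CPM, lay with the libraries of batch 2, and the others of batch 1 were lower. Gmnn had the smallest unadjusted p of the 10 genes, 0.188, at a log2 fold change of 0.21 (SE 0.15, edgeR adjusted p 0.9998), and was at 0.12 (SE 0.13) without control library 3 of batch 2.

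**Figure D2:**
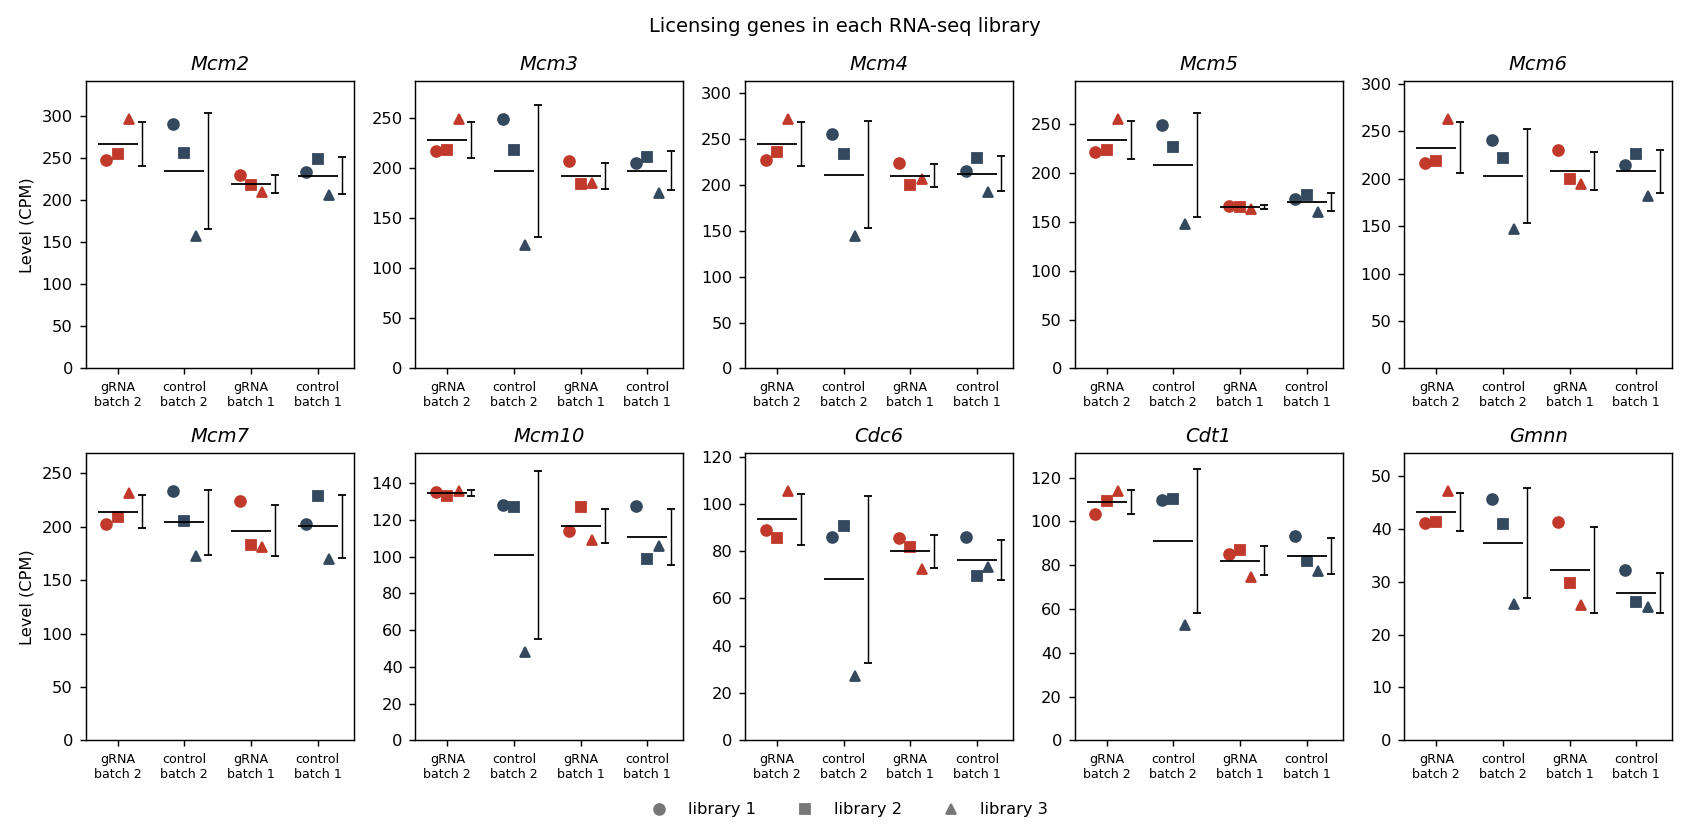
Level in CPM (vertical axes, from 0) of each licensing gene in the 12 RNA-seq libraries, by treatment and batch (horizontal axes). Points are libraries, horizontal lines are means and bars are SD of 3 libraries; control library 3 of batch 2, the dark triangle in the second column, lies lowest of its batch in all 10 genes, at 27.4 CPM for Cdc6.

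Taken batch by batch, the test called 0 of the 10 genes and 0% of all genes in either batch. In batch 2 (15647 genes, 116 of them below 0.05 unadjusted; 0 called and 119 by DESeq2) all 10 log2 fold changes were above 0, from 0.078 for Mcm7 to 0.46 for Cdc6, with a median of 0.22. In batch 1 (16988 genes, 147 of them; 0 called and 57 by DESeq2) 4 were above 0 and 6 below, from -0.067 for Mcm2 to 0.21 for Gmnn, with a median of -0.025. The difference between the batches was tested as an interaction, and 0 of the 10 genes and 0% of 18279 genes passed, with 236 below 0.05 unadjusted (0 called and 180 by DESeq2). That difference had a median of 0.25 over the 10 genes, from 0.0037 for Gmnn to 0.40 for Cdc6 (SE 0.43). Without control library 3 the median in batch 2 was -0.0063, with 4 above 0 and 6 below, and the median difference between batches was 0.030.

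Control library 3 of batch 2 lay farther from the rest of its batch than any other library did, for each of the 10 licensing genes. Against the mean of the other 5 libraries of its batch, on the log2 scale, Cdc6 was lower by the widest margin, at -1.73, then Mcm10 at -1.45 and Cdt1 at -1.05. The subunits lay between -0.90 for Mcm3 and -0.32 for Mcm7, and Gmnn was at -0.74. The median of the 10 genes was -0.76, against 0.0092 over all genes tested. This single library has no replicate and was singled out after its values were seen, so these differences carry no test.

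Other replication genes were low in the same library. Of all 17704 genes tested, 8537 were below the rest of the batch there. All 26 genes of the replication fork list were below the rest of the batch, with a median of -0.70, as were all 15 of the helicase activation list, at -0.79, and 8 of the 9 of the origin recognition list, at -0.41. Of the E2F and pocket proteins 12 of 15 were below, with a median of -0.48, and of the 14 genes that control licensing, mostly ubiquitin ligase parts and cyclins, 10 were below, at -0.14. Of the 16 mitosis genes only 6 were below, with a median of 0.044. In bulk RNA, fewer cells in a given phase and less RNA per cell cannot be told apart.

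The medians of the astrocyte, oligodendrocyte lineage, and endothelial and mural lists were higher in that library. The 6 astrocyte genes were all above the rest of the batch, with a median of 1.35, and so were the 4 tested genes of the oligodendrocyte lineage list, at 1.57, and the 3 tested endothelial and mural genes, at 0.95; 8 of the 9 neural stem cell genes were above, at 0.16. Of the other lists, 3 of the 5 tested neuronal genes were above, with a median of 0.19, 1 of the 2 tested ependymal genes was above, and the 1 tested microglial gene was below, at -1.11. The summed level of the 6 astrocyte genes was 578 to 798 CPM in the gRNA and 586 to 804 CPM in the control libraries of batch 2. Control library 3, at 804 CPM, was close to gRNA library 3, at 798 CPM. For the 6 oligodendrocyte lineage genes it was 176 to 247 CPM in gRNA and 216 to 334 CPM in control libraries, with control library 3 highest. For the 5 endothelial and mural genes it was 3.86 to 4.96 CPM in gRNA and 3.23 to 7.20 CPM in control libraries. In batch 1 the astrocyte sum was 681 to 934 CPM in gRNA and 627 to 1115 CPM in control libraries. The oligodendrocyte lineage sum there was 81.0 to 115 CPM in gRNA and 72.0 to 121 CPM in control libraries, and the endothelial and mural sum 5.67 to 7.38 CPM in gRNA and 2.71 to 5.27 CPM in control libraries. Gfap and Aqp4, of the astrocyte list, ran over the 12 libraries from 0.40 to 40.3 CPM and from 0.46 to 31.0 CPM. Sox10 was at 0 in 3 of the 12. The depth of control library 3, 13854672 counts, lay within the 13011630 to 16984538 of the other libraries of batch 2. The part of these markers in the level of the licensing genes was not tested.

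**Figure D3:**
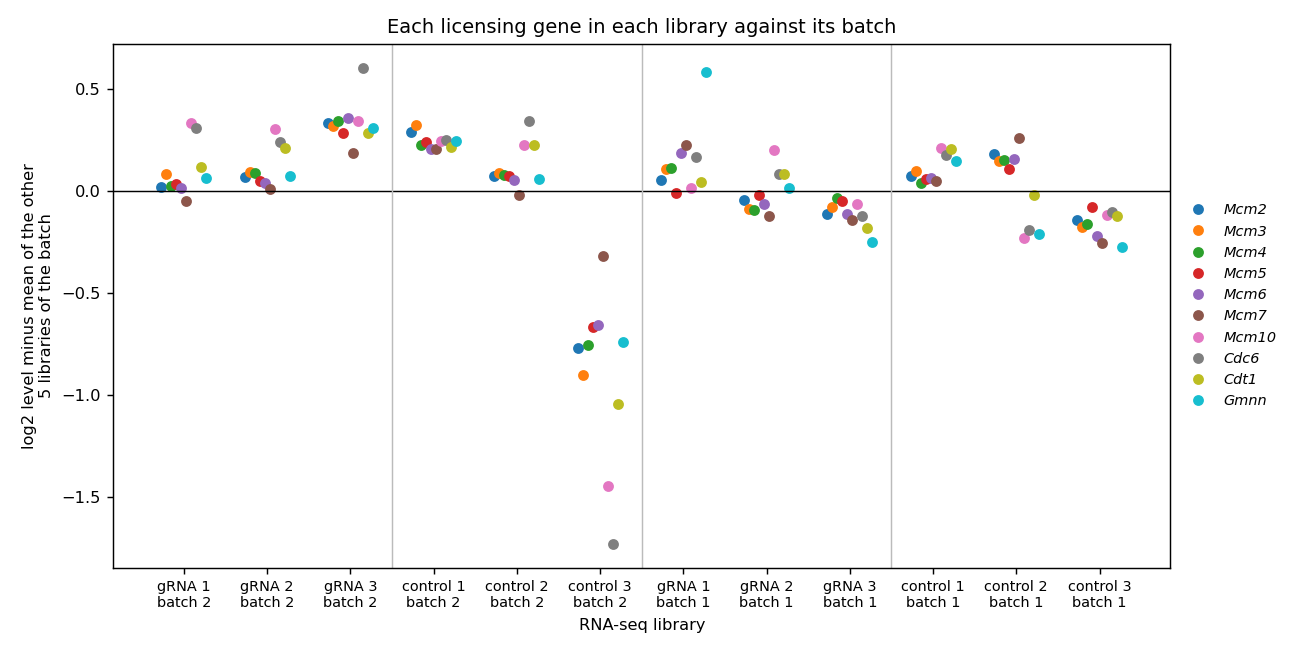
Log2 level of each licensing gene in each library minus the mean of the other 5 libraries of the same batch (vertical axis), by library (horizontal axis). Coloured points are genes; control library 3 of batch 2 is below 0 for all 10 genes, from -0.32 for Mcm7 to -1.73 for Cdc6.

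Between the batches, Mcm5 and Gmnn were higher in batch 2 and the other 8 genes did not pass the test. Over all 17704 genes tested, 61.4% differed between batches, 28.4% higher and 33.1% lower in batch 2. Of the 10 licensing genes 2 did, both higher. The median size of the log2 fold change was 0.064 over the 10 genes and 0.44 over all genes. Mcm10 had a smaller change than all but 1.36% of the genes tested, Mcm6 than all but 2.11%, Cdc6 than all but 2.67% and Mcm7 than all but 3.74%. These ranks, the median size and the number of licensing genes called rest on control library 3 of batch 2. Without it the shares of genes with a smaller change were 22.1% for Mcm10, 15.6% for Mcm6, 23.7% for Cdc6 and 11.55% for Mcm7. For the 2 called genes the share was 43.1% for Mcm5 and 45.1% for Gmnn with all 12 libraries. It was 48.1% for Mcm5 and 49.6% for Gmnn without that library, so both changed less than most genes tested. Without control library 3 of batch 2 the median size was 0.19 over the 10 genes and 0.47 over all genes. In that fit 5 of the 10 genes were called, all higher, against 65.8% of all genes, with 30.1% higher and 35.7% lower. The library left out was the lowest of batch 2 for all 10 genes, so leaving it out raises batch 2 by construction. It was picked after its values were seen. Results without it, here and below, show how far the calls rest on it and are not separate tests. The labels give the batch only as a number, so anything else that differed between the batches cannot be told apart from it.

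Mcm5, the subunit that forms a gate in the ring together with Mcm2, had 222, 223 and 256 CPM in the gRNA and 249.7, 227 and 148 CPM in the control libraries of batch 2. Batch 1 gave 167, 166 and 163 CPM in the gRNA and 173, 178 and 160.0 CPM in the control libraries. All libraries of batch 2 except control library 3 were above all of batch 1. The log2 fold change, batch 2 against batch 1, was 0.34 (SE 0.11, 95% interval 0.11 to 0.58, n = 6 libraries per batch, edgeR adjusted p 0.015). Without control library 3 of batch 2 it was 0.44 (SE 0.072, edgeR adjusted p 0.000104), and it passed the test whichever library was left out. Between gRNA and control libraries Mcm5 was at 0.057 (SE 0.11), and at -0.038 (SE 0.073) without control library 3 of batch 2.

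Gmnn was at 0.37, batch 2 against batch 1 (SE 0.15, 95% interval 0.049 to 0.70, edgeR adjusted p 0.0443). The call was lost when any of 8 libraries was left out, with adjusted p between 0.051 and 0.105: gRNA libraries 2 and 3 and control library 3 of batch 1, and gRNA libraries 1, 2 and 3 and control libraries 1 and 2 of batch 2. Without control library 3 of batch 2, Gmnn was at 0.47 (SE 0.13, edgeR adjusted p 0.0056).

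Other calls also changed when control library 3 of batch 2 was left out. Without it 5 of the 10 genes were called, all higher in batch 2, where 65.8% of 18354 genes were called, 30.1% higher and 35.7% lower. The additional genes were Cdt1 at 0.35 (SE 0.071, edgeR adjusted p 0.000673), Mcm2 at 0.22 (SE 0.088, adjusted p 0.040) and Mcm10 at 0.16 (SE 0.066, adjusted p 0.0463). These calls come from leaving out the lowest library of batch 2 after its values were seen, so they are no independent evidence of a batch difference. With all 12 libraries Cdt1 was at 0.21 (SE 0.15), Mcm2 at 0.11 (SE 0.13) and Mcm10 at -0.0093 (SE 0.18), and with no filter on low counts Cdt1 passed too (0.26, edgeR adjusted p 0.0325). The signs of Mcm10 and of Cdc6, at -0.017 (SE 0.21), turned when libraries were scaled by total counts or no filter was used. Mcm3 was at 0.072 (SE 0.14), Mcm4 at 0.056 (SE 0.13), Mcm6 at 0.014 (SE 0.12) and Mcm7 at 0.024 (SE 0.11). In the fit without control library 3 of batch 2, Mcm3 was at 0.20 (SE 0.087), Mcm4 at 0.16 (SE 0.087), Mcm6 at 0.11 (SE 0.097), Mcm7 at 0.078 (SE 0.10) and Cdc6 at 0.17 (SE 0.083), none of them called.

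**Figure D4:**
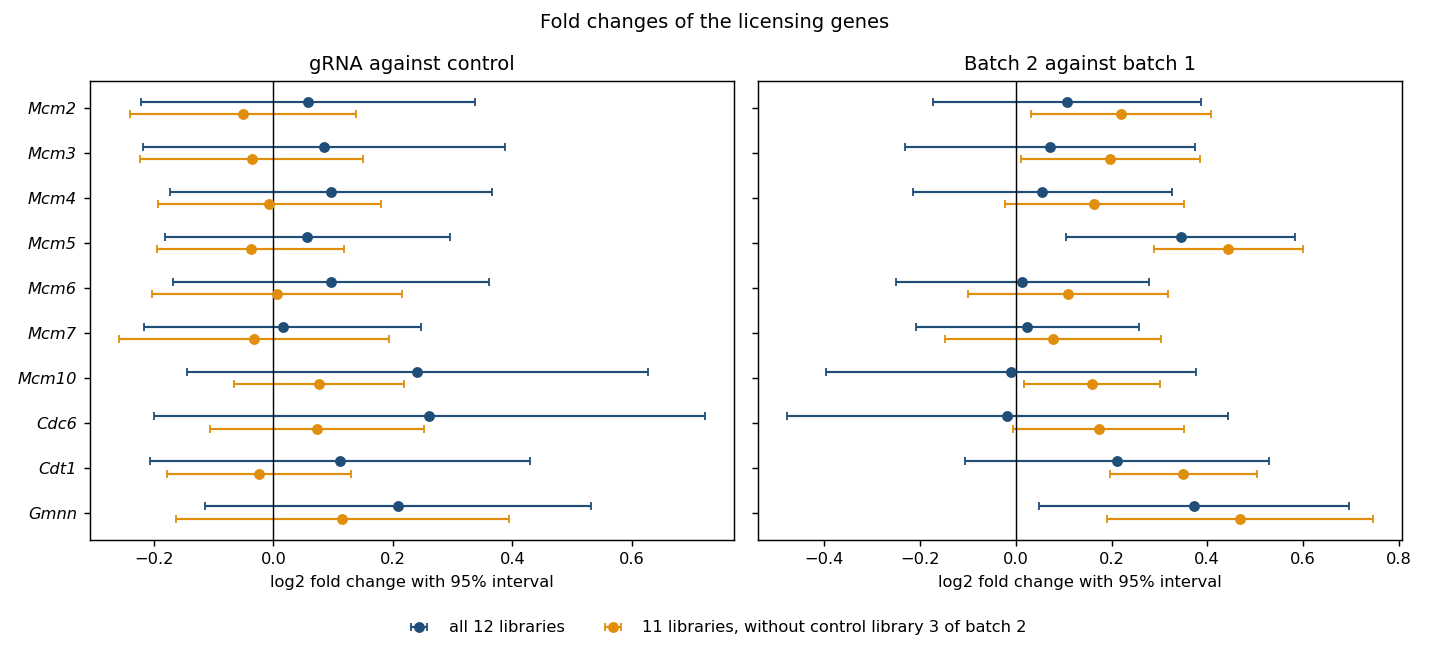
Log2 fold changes with 95% intervals (horizontal axes) of the 10 licensing genes for gRNA against control (left) and batch 2 against batch 1 (right). Blue points use all 12 libraries and orange points 11, without control library 3 of batch 2; in the right plot the intervals of Mcm5 and Gmnn lie above 0 in both fits.

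The makeup of the Mcm2 to Mcm7 counts was then compared, as the percentage that each subunit took of the sum in a library, which does not depend on the scaling of libraries. It is a share of reads and not of molecules, since lengths of the transcripts were not used. Exact two-sided permutation tests over libraries were run on 16 values, 2 contrasts for each of 6 shares and 2 ratios, and their p-values are not adjusted. Between treatments labels were exchanged within batches (400 arrangements, smallest possible p 0.005), and between batches over all 12 libraries (924 arrangements, smallest possible p 0.00216).

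The Mcm5 share was higher in batch 2 and those of Mcm6 and Mcm4 were lower, but shares of a sum are tied, so that a higher Mcm5 share lowers the others. Mcm5 took 16.6, 16.4 and 16.3% in gRNA and 16.4, 16.7 and 16.6% in control libraries of batch 2. In batch 1 it took 13.01, 14.4 and 14.3% in gRNA and 13.9, 13.5 and 14.8% in control libraries. The 6 libraries of batch 2, control library 3 among them, were all above the 6 of batch 1, and the means differed by 2.53 percentage points (16.5 ± 0.137% in batch 2 and 13.99 ± 0.649% in batch 1, SD, n = 6 each, exact permutation p 0.00216, the smallest possible). The level of Mcm5 and its share are not independent measures.

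Mcm6 averaged 16.3 ± 0.316% in batch 2 and 17.25 ± 0.404% in batch 1 (difference -0.97, exact permutation p 0.00433). Mcm4 averaged 16.99 ± 0.438% in batch 2 and 17.6 ± 0.317% in batch 1 (difference -0.57, exact permutation p 0.0108). In the sum of the other 5 subunits, without Mcm5, which was added after the data were seen, Mcm4 took 20.36 ± 0.513% in batch 2 and 20.43 ± 0.448% in batch 1 (exact permutation p 0.796), so its lower share was not seen there. Mcm6 took 19.5 ± 0.373% in batch 2 and 20.05 ± 0.359% in batch 1 (difference -0.55, exact permutation p 0.0281, 5 such tests, not adjusted). For the other 3 subunits the exact permutation p was 0.0931 or more, but without control library 3 of batch 2 it was 0.00649 for Mcm2 (difference 0.89), 0.013 for Mcm3 (0.52) and 0.0216 for Mcm7 (-0.93). The levels of Mcm4 and Mcm6 themselves did not pass the test between batches. Of the 6-subunit sum, the Mcm2 means were 18.6% in both batches (exact permutation p 0.998), and for Mcm3 15.7% in batch 2 and 16.2% in batch 1 (exact permutation p 0.394). Mcm7 averaged 15.85 ± 1.73% in batch 2 and 16.4 ± 0.760% in batch 1 (difference -0.56, exact permutation p 0.519). Control library 3 held the highest Mcm7 share of all, 19.35%, and the lowest Mcm3 share, 13.8%. Without it the Mcm7 difference was -1.26, with an exact permutation p of 0.00433.

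Between gRNA and control libraries no share reached an exact p under 0.05. The differences, gRNA minus control, were 0.36 percentage points for Mcm4 (exact permutation p 0.115), 0.29 for Mcm6 (p 0.2), 0.295 for Mcm3, -0.071 for Mcm2, -0.12 for Mcm5 and -0.74 for Mcm7 (p 0.425). Within batch 2 the Mcm7 difference was -1.51 (15.1% in gRNA and 16.6% in control libraries), and within batch 1 it was 0.025 (16.43% in gRNA and 16.41% in control libraries). With control library 3 of batch 2 left out, the Mcm7 difference was -0.14 within batch 2 (15.1% in gRNA and 15.24% in control libraries) and -0.059 over both batches (exact permutation p 0.835). For Mcm4 the difference was 0.51 within batch 2 and 0.20 within batch 1, and 0.25 within batch 2 without that library. The difference without it was -0.11 for Mcm3, -0.29 for Mcm2, -0.12 for Mcm5 and 0.35 for Mcm6 over both batches, with exact permutation p of 0.115 or more.

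**Figure D5:**
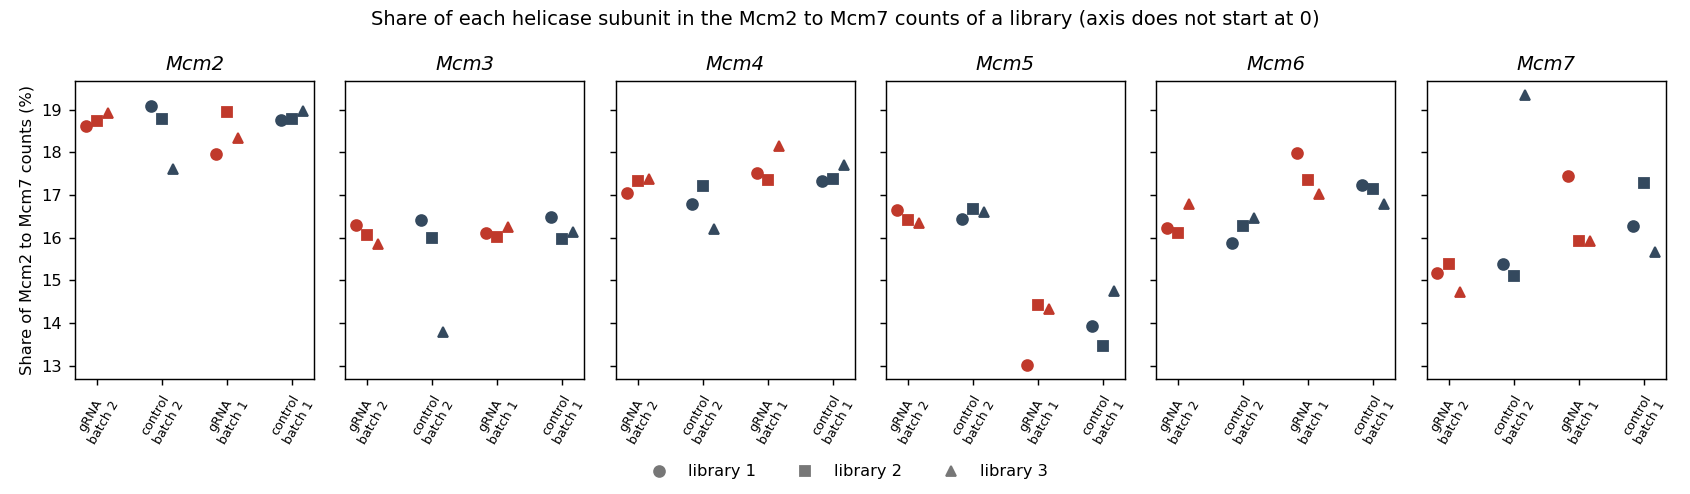
Share of each helicase subunit in the summed Mcm2 to Mcm7 counts of a library, in percent (vertical axis, which does not start at 0), by treatment and batch (horizontal axes). Points are libraries; for Mcm5 the 6 libraries of batch 2 lie between 16.3 and 16.7% and the 6 of batch 1 between 13.01 and 14.8%.

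The balance of loader and inhibitor was given as a log2 ratio of Cdt1 to Gmnn counts. It averaged 1.36 ± 0.19 in gRNA and 1.42 ± 0.23 in control libraries (SD, n = 6 each, exact permutation p 0.605). The difference was 0.091 within batch 2 and -0.22 within batch 1, and -0.012 within batch 2 without control library 3. Between batches it averaged 1.29 ± 0.14 in batch 2 and 1.49 ± 0.22 in batch 1 (exact permutation p 0.106), where gRNA library 1 of batch 1, at 1.04, lay far below the other 5 of its batch, at 1.54 to 1.65. Without that library the difference was -0.28 with an exact permutation p of 0.00433. That library was singled out after its value was seen, so this p-value is not a separate test.

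The log2 ratio of Cdc6 counts to the Mcm2 to Mcm7 sum ran from -3.99 to -3.82 in gRNA libraries and from -5.02 to -3.85 in control libraries (exact permutation p 0.145). The lowest value was that of control library 3 of batch 2, and the difference, gRNA minus control, was 0.26 over both batches, 0.43 within batch 2 and 0.096 within batch 1. Without that library it was 0.095 over both batches (exact permutation p 0.295) and 0.095 within batch 2. Without control library 2 of batch 2, with control library 3 kept, it was 0.38 (exact permutation p 0.035). Both ratios were chosen after the data were seen.

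How the genes varied together was described over the 12 libraries with each gene centred within its batch; the points share a library each, and 1 of them lies far from the rest. The mean of Mcm2 to Mcm7 contains its own subunits, whose Pearson r with it ran from 0.86 for Mcm7 to 0.99 for Mcm2. Cdt1 had an r of 0.92 with that mean, Cdc6 of 0.90, Mcm10 of 0.85 and Gmnn of 0.82. Without control library 3 of batch 2 the values were 0.52 for Cdt1, 0.36 for Cdc6, -0.061 for Mcm10 and 0.56 for Gmnn, while the 6 subunits stayed between 0.91 and 0.99. Among 10697 genes at a mean of at least 10 CPM, those most like the mean and outside the 10 were Nsun2, an RNA methyltransferase, at 0.99, Srm, spermidine synthase, at 0.99, Mthfd1, an enzyme of folate metabolism, at 0.99, Uhrf1, which maintains DNA methylation, at 0.99, and the nucleolar protein Mybbp1a at 0.99. Without that library they had an r of 0.95, 0.95, 0.97, 0.95 and 0.96, in the same order. The genes were picked by r over libraries that include these, so a high r was partly set by the choice.

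The genes around licensing were set beside these, from 7 lists of 101 genes, of which 98 were tested in the comparison over both batches. Between gRNA and control libraries 0 of the 98 passed edgeR's test. The median log2 fold change was 0.18 for helicase activation, 0.12 for the replication fork, 0.11 for origin recognition, 0.11 for E2F and pocket proteins, 0.098 for the other Mcm and geminin family, 0.038 for control of licensing and -0.032 for mitosis. Without control library 3 of batch 2 these medians were 0.064, 0.020, 0.045, 0.059, 0.099, -0.0081 and -0.021, in the same order. The smallest unadjusted p of each list was that of Donson, a factor of helicase assembly, at 0.21 (SE 0.10), of Clspn, a checkpoint protein of the fork, at 0.24 (SE 0.12), and of Orc1, the largest subunit of the origin recognition complex, at 0.33 (SE 0.18). For the other lists it was that of Lin9, of a complex that regulates cell cycle genes, at 0.15 (SE 0.084), Mcm8, a helicase of recombination, at 0.25 (SE 0.14), Fzr1, an activator of the anaphase promoting complex, at -0.12 (SE 0.065), and Ube2c, a ubiquitin conjugating enzyme of the anaphase promoting complex, at -0.17 (SE 0.11). With control library 3 of batch 2 left out, these were 0.14 for Donson, 0.14 for Clspn, 0.17 for Orc1, 0.097 for Lin9, 0.12 for Mcm8, -0.11 for Fzr1 and -0.15 for Ube2c.

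Between the batches, 4 of the 9 origin recognition genes were higher in batch 2 and 0 lower, against 28.4% and 33.1% of all genes. Without control library 3 of batch 2, 7 were higher, against 30.1% of all genes. Lrwd1, which binds the origin recognition complex, averaged 76.1 ± 6.57 CPM in batch 2 and 52.5 ± 4.02 CPM in batch 1 (SD, n = 6 each), a log2 fold change of 0.49 (SE 0.075, edgeR adjusted p 5.49e-05). Orc3, a subunit of the complex, rose by 0.31 on the log2 scale, Mcmbp, a chaperone of the Mcm subunits, by 0.25 and the histone acetyltransferase Kat7 by 0.17.

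Of 15 helicase activation genes 4 were higher in batch 2 and 0 lower, against 28.4% and 33.1% of all genes. Without control library 3 of batch 2, 8 were higher and 0 lower, against 30.1% and 35.7% of all genes. Recql4, a helicase needed for initiation, averaged 58.5 CPM in batch 2 and 28.3 CPM in batch 1, a log2 fold change of 0.99 (SE 0.15, edgeR adjusted p 6.75e-05). Pole2, a subunit of DNA polymerase epsilon, was at 0.57, Gins1, a part of the GINS complex, at 0.43 and Cdc7, the kinase that phosphorylates the Mcm ring, at 0.36. Of 26 replication fork genes 7 were higher and 1 lower, and 17 and 1 without that library; Rfc4 of the clamp loader was at 0.50, the primase subunit Prim1 at 0.46, the fork protection protein Timeless at 0.42 and thymidine kinase Tk1 at 0.33.

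Of 14 genes that control licensing 3 were higher and 0 lower in batch 2, against 28.4% and 33.1% of all genes. The 3 were Cdk2, which drives S phase, at 0.36, and the ubiquitin ligase scaffolds Cul4a at 0.20 and Cul1 at 0.19. Without control library 3 of batch 2 the counts were 4 and 0, against 30.1% and 35.7% of all genes. Of 15 E2F and pocket proteins 0 were higher and 6 lower, and 3 and 5 without that library. Rb1, the retinoblastoma protein, averaged 73.1 CPM in batch 2 and 118 CPM in batch 1 (log2 fold change -0.74, SE 0.13, edgeR adjusted p 0.000167), the E2F partner Tfdp2 was at -0.51, the pocket protein Rbl1 at -0.29 and E2f5, an E2F that mostly represses, at -0.25.

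Of the 3 tested genes of the other Mcm and geminin family 0 were higher and 2 lower in batch 2, against 28.4% and 33.1% of all genes. Mcmdc2, a relative of the Mcm proteins known from meiosis, averaged 0.337 CPM in batch 2 and 4.67 CPM in batch 1. Its level in batch 2 was near 0, and it passed the filter on low counts through batch 1. Its log2 fold change of -3.81 (SE 0.32) and its place among the 2 lower genes are therefore not read as a test. Mcm9, the partner of Mcm8, was at a log2 fold change of -0.32. Mcm8, at 0.11 (SE 0.14), was called higher without control library 3 of batch 2. Of 16 mitosis genes 1 was higher, Aurkb, a kinase of the chromosomal passenger complex, at 0.33, and 3 were lower, the kinetochore protein Cenpf at -0.27, cyclin Ccnb2 at -0.27 and the spindle protein Nusap1 at -0.16; without that library the counts were 2 and 4.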

How the data were processed

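RNA-seq of 12 libraries of mouse neural stem cells was used. Per the labels' protocols, total RNA was depleted of ribosomal RNA and made into stranded libraries. Per the submitters' processing notes, Trimmomatic, STAR, SAMtools and HTSeq were used on GRCm39; the sources used here give no version, annotation or strand setting, so reads of overlapping or antisense genes cannot be told apart. The values are whole-number read counts per Ensembl gene as deposited, with no normalization by the authors. Summary lines of HTSeq stayed out of all library sizes; reads in no gene made up 8.83% to 25.1% of a library, a share that was higher in batch 1. No 2 libraries held identical counts.

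The tests used edgeR 4.0.16 under R 4.3.3 (filterByExpr with a minimum count of 10, TMM, quasi-likelihood test, Benjamini-Hochberg adjustment over all genes tested at 0.05), with DESeq2 1.42.0 and limma-voom (limma 3.58.1) as alternatives. For the deviations of single libraries a prior count of 1 was used. Scripts were tested on simulated data. Lists contributed up to 4 genes each, those with the smallest p in a comparison, and 5 genes were named by likeness to Mcm2 to Mcm7. The 10 genes, the lists and the tests were chosen with earlier results of these data known. Tests of footprints on the coding sequence were planned and not run: no table used here pairs the transcripts with genes, and the 4 library names match no label.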

Additional observations from a re-analysis of the deposited data

How the results depend on the processing

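No paired analysis was possible because replicate numbers stand in the labels of the footprint libraries only, which could not be assigned; the RNA-seq labels carry none. Scaling shares by transcript length and all footprint alternatives were not run. With no filter on low counts edgeR called 1 gene between gRNA and control over both batches, 1 in batch 1 and 42 for the difference between batches, against 0 each with the filter; none was a licensing gene, and the cause was not tested. The number of licensing genes called between batches was 2, and 1 to 5 when 1 library was left out.

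The following log2 fold changes turned sign; none had passed the test, and the cause was not tested. Without the third gRNA and control library of batch 2 together, gRNA against control was at -0.096 for Mcm2, -0.073 for Mcm3, -0.051 for Mcm4, -0.077 for Mcm5, -0.043 for Mcm6, -0.065 for Mcm7 and -0.048 for Cdt1. With DESeq2, Mcm6 in batch 1 was at -0.011. Batch 2 against batch 1, Mcm10 was at 0.039 and Cdc6 at 0.032 with no filter, and at 0.074 and 0.067 with total counts.

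Leaving out 1 library at a time, gRNA against control over both batches ran from -0.051 to 0.12 for Mcm2, -0.037 to 0.16 for Mcm3, -0.0068 to 0.15 for Mcm4, -0.038 to 0.11 for Mcm5, -0.041 to 0.082 for Mcm7 and -0.024 to 0.16 for Cdt1. In batch 2 it ran from -0.032 to 0.37 for Mcm2, -0.034 to 0.42 for Mcm3, -0.027 to 0.32 for Mcm5, -0.035 to 0.19 for Mcm7, -0.012 to 0.44 for Cdt1 and -0.00033 to 0.38 for Gmnn. In batch 1 it ran from -0.16 to 0.032 for Mcm2, -0.14 to 0.049 for Mcm3, -0.10 to 0.080 for Mcm4, -0.11 to 0.020 for Mcm5, -0.12 to 0.11 for Mcm6, -0.17 to 0.11 for Mcm7, -0.11 to 0.035 for Cdt1, -0.022 to 0.14 for Cdc6 and -0.042 to 0.36 for Gmnn. The difference between batches ran from -0.014 to 0.26 for Mcm7 and -0.20 to 0.26 for Gmnn. Batch 2 against batch 1 ran from -0.046 to 0.11 for Mcm6, -0.014 to 0.12 for Mcm7, -0.074 to 0.16 for Mcm10 and -0.098 to 0.17 for Cdc6.

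Of the shares, gRNA minus control ran from -0.29 to 0.079 percentage points for Mcm2, -0.11 to 0.55 for Mcm3 and -0.27 to 0.10 for Mcm5, and batch 2 minus batch 1 from -0.13 to 0.20 for Mcm2. The log2 ratio of Cdt1 to Gmnn, gRNA minus control, ran from -0.12 to 0.018.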
